A study of Arabidopsis thaliana with 6 samples.

Results

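The 46 genes described here are nuclear genes of Arabidopsis thaliana that encode proteins of the photosynthetic apparatus: 6 LHCA genes, 14 LHCB genes, 12 subunit genes of photosystem I, 10 subunit genes of photosystem II and 4 RBCS genes. They were chosen by name from 27444 protein-coding genes on the 5 nuclear chromosomes, by a rule that uses no measured value, although earlier results of these data were known when they were chosen. A gene was counted as marked where a called H3K9Ac peak overlapped its body or the 500 bp upstream of its annotated start by at least 1 bp.

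H3K9Ac, acetylation of lysine 9 on histone H3, was profiled by ChIP-seq in whole seedlings that had been grown in the dark for 3 days and then kept for 4 h in hydrocarbon-free air or in such air with 10 ppm ethylene. Every sample carried ein2-5, a loss-of-function allele of EIN2, whose product is required for the ethylene response, so that air and ethylene were compared within this mutant, and no other genotype was analysed here. Each of the 2 treatments had 2 H3K9Ac libraries and 1 control library, named IgG in the titles and Protein G beads in the antibody field. The 2 H3K9Ac libraries were pooled before peak calling, so that each treatment is 1 list with no spread between replicates and no test of the treatment can be made.

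The thylakoid membrane captures light in pigment-bound antenna proteins and passes the energy to the 2 photosystems, which drive electrons from water to ferredoxin. LHCA proteins form the antenna of photosystem I and LHCB proteins that of photosystem II, and RBCS genes encode the small subunit of RuBisCO, the enzyme that fixes carbon dioxide. These genes lie in the nucleus and their products are imported into plastids. Many of them are strongly induced by light, and in dark-grown seedlings the plastids are etioplasts that lack chlorophyll. H3K9Ac typically lies just downstream of the start of transcribed genes.

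The air list held 18314 peaks from 45582654 H3K9Ac tags, the aligned reads kept at 1 per position and strand, and 13726993 control tags. The ethylene list held 12864 peaks from 43572576 H3K9Ac tags and 4354374 control tags. The control of the ethylene list was the smaller one, and what the control and the ethylene each contribute to a difference between the lists cannot be told apart. Heights are given as the number of H3K9Ac tags, each extended to 200 bp, that cover a summit, which cannot exceed 400. Intervals on tags are exact Poisson 95% intervals and cover counting error only. Fold enrichment is the height of a peak over the background that the peak caller took from the control. In whole seedlings, fewer cells with the mark and less of the mark in each cell cannot be told apart.

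Most of the photosynthesis genes were marked in the dark. In air, 36 of the 46 genes had a peak (78.3%), against 60.9% of the other 27398 protein-coding genes, and in ethylene 29 had one (63.0%), against 45.9%. The genes ranged from 720 to 3207 bp in length, and among the other protein-coding genes in that range the shares were 60.8% in air and 47.1% in ethylene. All 29 genes marked in ethylene were also marked in air, as were 12553 of the 12588 other protein-coding genes marked in ethylene. Of the 46, 7 genes were marked in air only, and 10 (21.7%) had no peak in either list, against 39.0% of the others. Of the other genes marked in air, 24.8% had no ethylene peak. With peaks of q at most 0.01, all 36 air calls remained, against 59.9% of the other genes, but 15 of the 46 genes were marked in ethylene, against 31.6%, a share close to that of the others.

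The counts differed between the groups. All 12 photosystem I genes and all 10 photosystem II genes had an air peak, as did 5 of 6 LHCA genes and 3 of 4 RBCS genes, but only 6 of 14 LHCB genes did. In ethylene the counts were 10 of 12, 10 of 10, 3 of 6, 3 of 4 and 3 of 14. The LHCB1 genes, LHCB2.1 and LHCB2.2 had under 90% unique 51-base reads with up to 2 mismatches. Of the other LHCB genes, 5 were marked in air and 2 in ethylene, and LHCB2.3 and LHCB3 in neither. Within LHCB, the genes of the trimeric major antenna, LHCB1 to LHCB3, had a peak at 1 of 9 in each list, and the genes of the monomeric minor antenna, LHCB4 to LHCB6, at 5 of 5 in air and 2 of 5 in ethylene. This division of LHCB follows the known roles of the proteins but was made after the values had been seen.

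**Figure D1:**
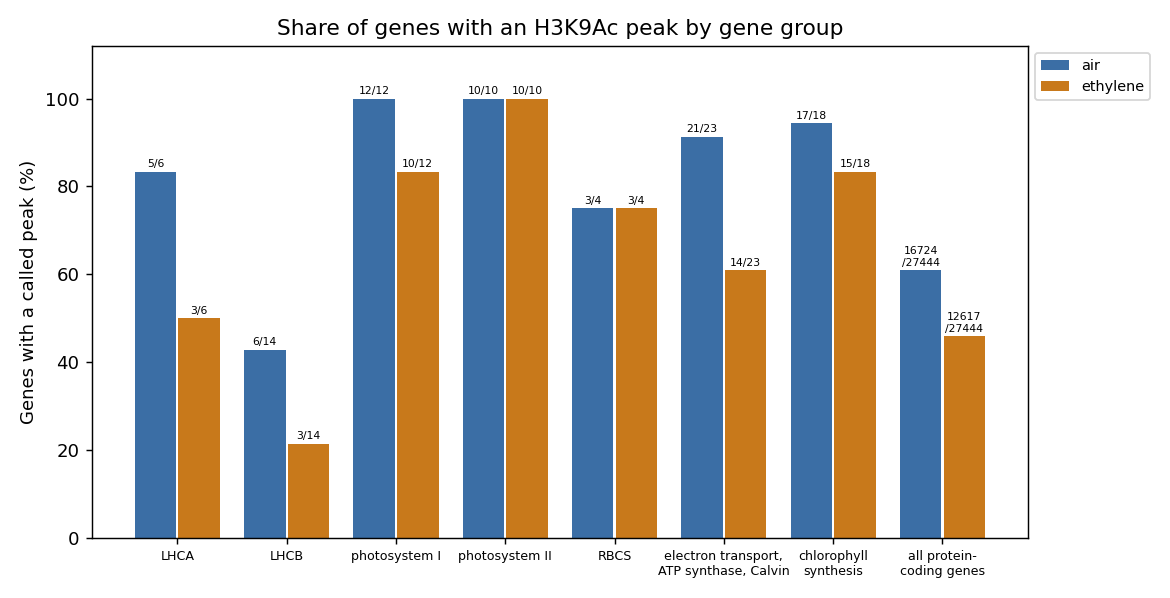
Percentage of genes with a called H3K9Ac peak in air (blue) and ethylene (orange) for the 5 groups, 2 lists of other photosynthesis genes and all protein-coding genes, with the counts above each bar. The photosystem I and II groups stand at 12 of 12 and 10 of 10 in air, and LHCB stands lowest at 6 of 14 in air and 3 of 14 in ethylene.

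Where a peak was called, it lay at the usual place for this mark. The main peak of a gene was the tallest one with its summit in the gene body or, where there was none, the tallest with its summit in the upstream window or otherwise overlapping it. In air 36 of the 46 genes had a summit inside the body, against 57.7% of the other protein-coding genes, and these were all the marked genes, against 94.8% of the others marked. Of these 36 summits 32 lay over a coding exon and 4 over an intron (LHCA2, LHCA5, PSAK and PSBR), which was not counted for all protein-coding genes. The median distance from the annotated start to the air summit was 338 bp, against 328 bp over all marked protein-coding genes. The quartiles were 291.2 and 416.2 bp, against 242 and 460 bp. Of the 36 summits 34 lay 100 to 600 bp downstream, a share not counted for all genes. The exceptions were LHCB6 at 914 bp and PSBS at 1676 bp. The PSBS summit lay 201 bp from the nearest annotated start of another transcript of that gene. In ethylene 28 of 29 main summits were inside the gene, as were 11782 of those of the 12617 marked protein-coding genes. Among the 29, the exception was PSAO.

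**Figure D2:**
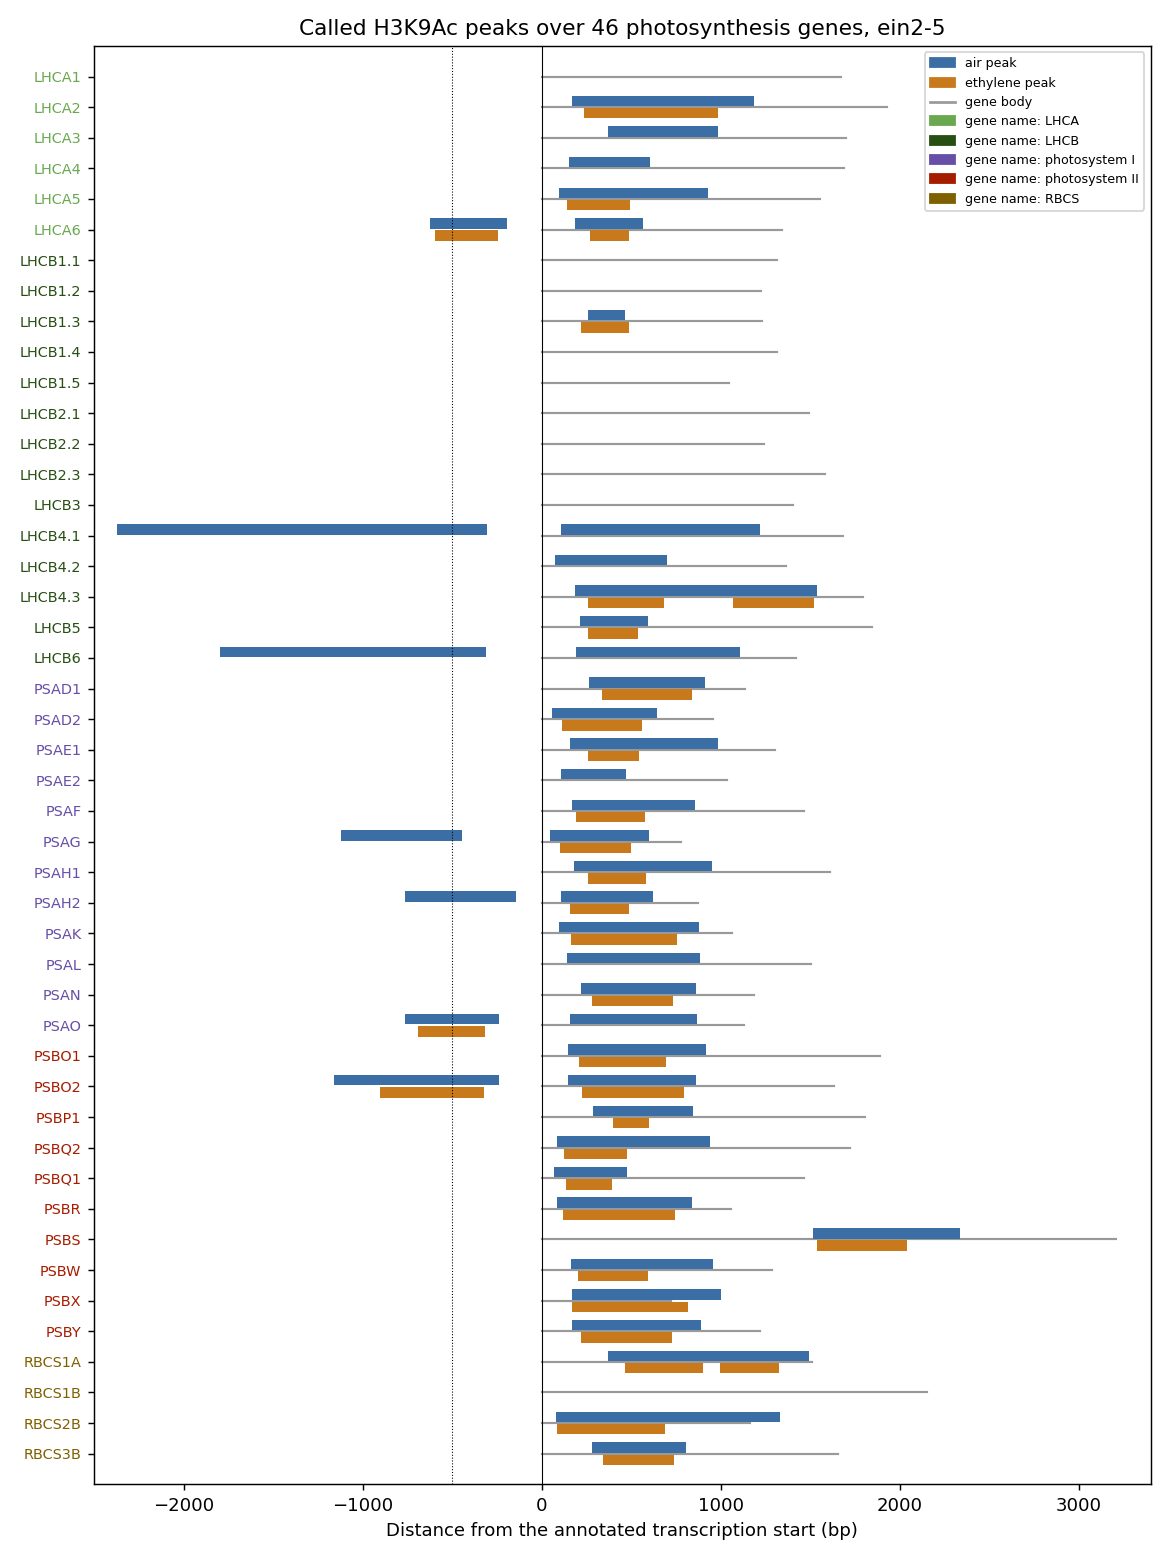
Called H3K9Ac peaks over the 46 genes, drawn as distance in bp from the annotated start, with gene bodies in grey, air peaks in blue, ethylene peaks in orange and a dotted line at the 500 bp window edge. The 36 genes with an air peak have it over the 5′ part of the body in nearly every case, and the 10 rows without any bar include 8 LHCB genes.

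The levels over marked genes were close to those of marked genes in general. The median height was 272.5 tags in air, against 270 over all marked protein-coding genes, and 267 tags in ethylene, against 284. Summed over all peaks of a gene, the median breadth was 780.5 bp in air against 678 bp over all marked genes, and 447 bp in ethylene against 468 bp. Median fold enrichment was 2.42 in air against 2.40, and 2.18 in ethylene against 2.21. A main peak of at least 2-fold enrichment was present at 31 of the 46 genes in air and 21 in ethylene, against 48.4% and 32.8% of the others. By group, median fold enrichment in air was 2.85 for photosystem II, 2.76 for LHCA, 2.71 for RBCS, 2.35 for photosystem I and 2.28 for LHCB. The photosystem II genes ran from 2.302 to 3.05 in air and the photosystem I genes from 1.65 at PSAE2 to 3.57 at PSAL.

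**Figure D3:**
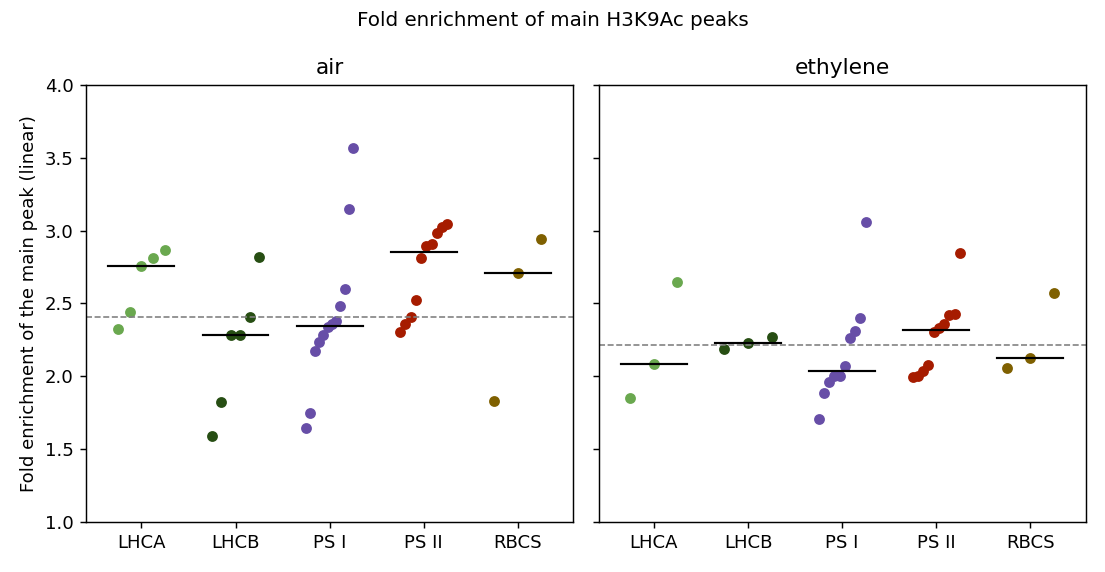
Fold enrichment over the control background (linear axis) of the main peak of each gene, in air (left) and ethylene (right), with the group median as a black bar and the median of all marked protein-coding genes as a dashed line at 2.40 and 2.21. The photosystem II points in air lie between 2.302 and 3.05, and PSAL in air is the highest point at 3.57.

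The major antenna genes carried almost no called peak. LHCB1.1 (AT1G29920), LHCB1.2 (AT1G29910), LHCB1.4 (AT2G34430), LHCB1.5 (AT2G34420), LHCB2.1 (AT2G05100), LHCB2.2 (AT2G05070), LHCB2.3 (AT3G27690) and LHCB3 (AT5G54270) had none in either list. These genes encode the chlorophyll a/b proteins of the LHCII trimer. The nearest air peak lay 2174 bp from LHCB1.1, 3560 bp from LHCB1.2 and from LHCB1.5, 3139 bp from LHCB1.4, 5599 bp from LHCB3 and 21991 bp from LHCB2.1. Only LHCB1.3 (AT1G29930) was marked. Its air peak was 207 bp broad, with 181 tags at the summit (155.6 to 209.4) and a fold enrichment of 1.59, and its ethylene peak was 270 bp broad with 185 tags and 2.27-fold enrichment. It was the narrowest air peak of the 46 genes, and 0.732% of all air peaks were narrower.

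LHCB1 and LHCB2 include near-identical copies, which bears on what a list of uniquely mapped 51-base reads can show. LHCB2.3 is less alike, at 84.6% identity in coding sequence to LHCB2.1 and 84.8% to LHCB2.2. LHCB1.2, LHCB1.1 and LHCB1.3 lie side by side on chromosome 1, with 1153 bp between LHCB1.1 and LHCB1.2 and 1915 bp between LHCB1.1 and LHCB1.3, and their coding sequences are 95.7% to 96.4% identical. LHCB1.4 and LHCB1.5 lie 1038 bp apart on chromosome 2 and are 92.5% identical. Read uniqueness was counted over the gene body and its upstream window in the RefSeq copy of the genome, TAIR10.1. By exact match 85.7% of the reads of LHCB1.1 occurred once, and 65.1% did so when up to 2 mismatches were allowed. The latter share was 60.8% for LHCB1.2, 58.8% for LHCB1.3, 75.9% for LHCB1.4, 67.9% for LHCB1.5, 66.1% for LHCB2.1 and 63.9% for LHCB2.2. LHCB1.3, the one marked gene of the 7, had the lowest share of them with up to 2 mismatches. By exact match its share was 88.5%, and the others ran from 82.1% at LHCB2.2 to 92.95% at LHCB1.2. The part of read uniqueness in the missing peaks was not tested.

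The 61 bases over the air summit of LHCB1.3 and the matching bases of 3 copies are shown because these bases are all that separates the copies there. All are in coding exons, read 5′ to 3′ in the direction of the gene from TAIR10.1, and capitals mark bases that differ from LHCB1.3.
LHCB1.3, chr1:10478171-10478231, plus strand: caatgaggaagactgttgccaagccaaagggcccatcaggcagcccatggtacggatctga
LHCB1.1, chr1:10475732-10475792, minus strand: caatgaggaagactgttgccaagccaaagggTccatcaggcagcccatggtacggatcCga
LHCB1.2, chr1:10473086-10473146, minus strand: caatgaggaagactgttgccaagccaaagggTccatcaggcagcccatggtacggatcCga
LHCB1.5, chr2:14523359-14523419, minus strand: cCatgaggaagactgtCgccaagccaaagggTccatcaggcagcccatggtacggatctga
LHCB1.1 and LHCB1.2 each differ from LHCB1.3 at 2 of the 61 bases and are identical to each other over this stretch. By exact match, of the 11 possible 51-base reads on it, 11 are unique in the genome for LHCB1.3, 0 of 11 for LHCB1.1, 0 of 11 for LHCB1.2 and 11 of 11 for LHCB1.5, which has 3 differences. LHCB1.4, not shown, differs at 19 bases and has 11 of 11 unique. With up to 2 mismatches allowed, every read of LHCB1.3 on this stretch also matches LHCB1.1 and LHCB1.2.

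Not all unmarked genes have near-identical copies. In LHCA1, LHCB2.3 and LHCB3, 3 of the 10 genes without a peak, every read was unique by exact match, and with up to 2 mismatches the shares were 100%, 99.6% and 99.6%. The lists held no peak at these 3 genes, and the cause was not tested. LHCA1 (AT3G54890), a photosystem I antenna gene, had its nearest peak 548 bp from the gene in air and 737 bp in ethylene, just beyond the 500 bp window. For LHCB2.3 the nearest peaks were at 3935 bp and 10082 bp, and for LHCB3 at 5599 bp and 5735 bp. Of all 46 genes, 31 had every read unique by exact match, and 12 fell under 90% with up to 2 mismatches.

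**Figure D4:**
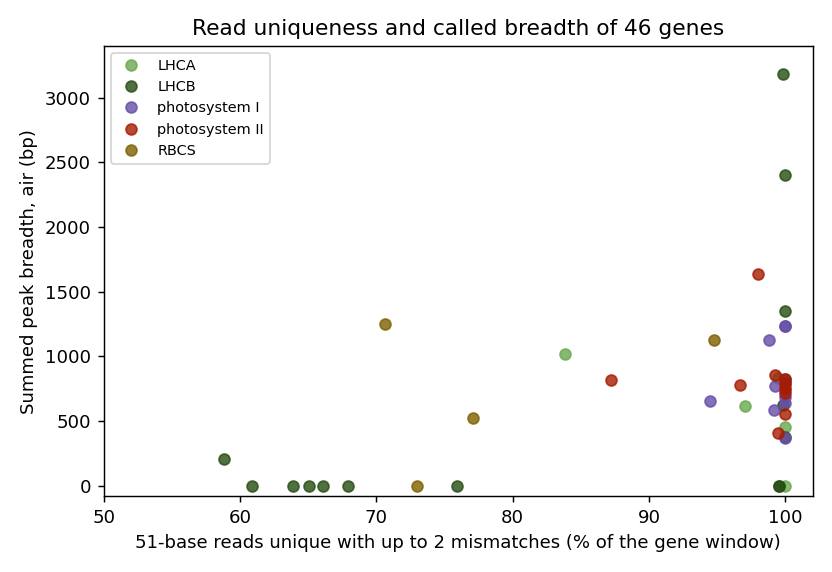
Summed breadth of air peaks in bp against the percentage of 51-base reads of each gene window that are unique with up to 2 mismatches, for the 46 genes coloured by group. The 7 LHCB1 and LHCB2 genes other than LHCB2.3, at 58.8% to 75.9%, sit at 0 bp, except LHCB1.3 at 207 bp. LHCA1, LHCB2.3 and LHCB3 sit at 0 bp with 99.6% or more.

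The minor antenna genes were all marked in air. LHCB4.1 (AT5G01530, chromosome 5), which encodes a linker between LHCII and the photosystem II core, had the highest peak of the 46 genes. Its main air peak was 1113 bp broad and reached 362 tags, with a fold enrichment of 2.82, and 97.2% of all air peaks had fewer tags. A second air peak of 2069 bp, with its summit far upstream at -2083 bp and 325 tags, reached into the window, which brought the summed breadth to 3182 bp, the largest of the 46. No ethylene peak overlapped LHCB4.1. The nearest lay 680 bp from the air peak and 571 bp from the gene. Of 4142 genes marked in air only, 9 had more tags.

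LHCB4.2 (AT3G08940) and LHCB6 (AT1G15820) were likewise marked in air only, with 277 and 285 tags over main peaks of 626 and 912 bp. The LHCB6 air peak also covered AT1G05207, a long non-coding RNA gene on the opposite strand, and ChIP-seq reads carry no strand that would assign the mark to either. LHCB4.3 (AT2G40100) had a peak of 1354 bp and 316 tags in air. In ethylene 2 peaks lay over this gene, one of 426 bp with 331 tags near the same summit, and one of 450 bp with 250 tags at 1396 bp from the start. LHCB5 (AT4G10340) was low in both lists, at 176 tags (151.0 to 204.0) in air and 184 in ethylene, the lowest air height among the marked genes.

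The promoters of 4 genes are shown to set the marked and unmarked genes side by side at the sequence level: LHCB3, without a peak, LHCB4.1 and PSAL, marked in air only, and RBCS2B, marked in both lists. Each is the 250 bases upstream of the annotated start in RefSeq TAIR10.1, read 5′ to 3′ in the direction of the gene. Capitals mark any of 5 motifs on either strand: CACGTG (the G-box, bound by bZIP and bHLH factors of light signalling), GATAAG (the I-box of many RBCS promoters), CCAATC (a box of the kind bound by NF-Y), GCCAC (the core of a motif described in light-induced Arabidopsis promoters) and TATAAA (the TATA box).
LHCB3, chr5:22037915-22038164, plus strand: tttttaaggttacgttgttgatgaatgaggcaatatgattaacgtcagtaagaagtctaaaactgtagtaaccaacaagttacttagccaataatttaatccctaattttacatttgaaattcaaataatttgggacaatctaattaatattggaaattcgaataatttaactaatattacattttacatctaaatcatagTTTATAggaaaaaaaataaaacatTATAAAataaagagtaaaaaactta
LHCB4.1, chr5:208616-208865, plus strand: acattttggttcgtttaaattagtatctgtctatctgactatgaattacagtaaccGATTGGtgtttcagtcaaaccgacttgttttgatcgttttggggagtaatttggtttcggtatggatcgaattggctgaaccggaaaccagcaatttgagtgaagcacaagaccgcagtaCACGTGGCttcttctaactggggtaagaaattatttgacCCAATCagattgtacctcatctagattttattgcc
PSAL, chr4:7521007-7521256, plus strand: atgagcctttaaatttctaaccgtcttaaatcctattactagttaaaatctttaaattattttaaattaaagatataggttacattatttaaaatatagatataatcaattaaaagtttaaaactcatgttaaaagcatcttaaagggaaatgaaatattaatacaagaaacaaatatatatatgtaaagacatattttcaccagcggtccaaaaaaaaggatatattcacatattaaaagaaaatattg
RBCS2B, chr5:15382072-15382321, minus strand: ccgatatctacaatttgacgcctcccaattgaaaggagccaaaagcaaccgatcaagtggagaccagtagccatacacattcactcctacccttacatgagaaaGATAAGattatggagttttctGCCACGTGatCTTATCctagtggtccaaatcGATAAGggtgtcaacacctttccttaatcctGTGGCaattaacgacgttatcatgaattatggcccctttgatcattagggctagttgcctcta
CACGTG and GCCAC overlap within GCCACGTG, which occurs in LHCB4.1, on the reverse strand, and in RBCS2B. LHCB3 held TATAAA on both strands and none of the other motifs. PSAL held none of the 5. Over all 46 promoters CACGTG occurred in 9 (19.6%), against 6.49% of all protein-coding genes, and GCCAC in 19 (41.3%), against 15.4%. GATAAG occurred in 10 (21.7%), against 12.3%, CCAATC in 11 (23.9%), against 10.2%, and TATAAA in 21 (45.7%), against 47.4%. CCAATC was found in 7 of 14 LHCB and 3 of 6 LHCA promoters, 1 of 10 photosystem II promoters, and in none of the 12 photosystem I or the 4 RBCS promoters. Among the 36 genes with an air peak, 8 held CACGTG, 15 GCCAC and 6 CCAATC, and among the 10 without one the counts were 1, 4 and 5. A match describes these letters only. Where a gene had several annotated starts, the outermost one was used. At PSBS, RBCS1A and RBCS3B, among others, another annotated start lay inside the gene, and its own upstream bases were not searched as a promoter.

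The photosystem I antenna genes were marked at 5 of 6 in air. LHCA2 (AT3G61470) had the broadest peak of the group, 1016 bp with 258 tags in air and 751 bp with 265 tags in ethylene. LHCA5 (AT1G45474) and LHCA6 (AT1G19150), which encode minor members of this antenna, were also marked in both lists, LHCA5 over 833 bp in air and 350 bp in ethylene. LHCA6 had 2 peaks in each list, one on either side of its start, with summits at -337 and 360 bp in air and -355 and 341 bp in ethylene. LHCA3 (AT1G61520) and LHCA4 (AT3G47470) were marked in air only, with 199 tags (172.3 to 228.7) over 617 bp and 266 tags (235.0 to 300.0) over 452 bp. The nearest ethylene peak lay 31702 bp from the air peak of LHCA3 and 3592 bp from that of LHCA4.

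All 12 photosystem I subunit genes were marked in air. PSAF (AT1G31330), which docks the electron donor plastocyanin, was the highest of them, at 326 tags in air and 311 in ethylene over peaks of 687 and 386 bp. PSAH2 (AT1G52230) was the lowest, at 227 and 226 tags. Duplicate genes of this group were marked at both copies in air. PSAD1 and PSAD2, which encode the subunit that binds ferredoxin and are 88.0% identical in coding sequence, had 302 and 290 tags in air and 308 and 278 in ethylene. PSAH1 and PSAH2 had 234 and 227 tags in air and 250 and 226 in ethylene. PSAE1 (AT4G28750) and PSAE2 (AT2G20260), of the same stromal side of the complex, differed in the lists that held them. PSAE1 had 286 tags in air and 262 in ethylene, while PSAE2 had 248 tags over 367 bp in air, the narrowest peak of the group, and none in ethylene.

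PSAL (AT4G12800, chromosome 4), which encodes a subunit at the docking site of mobile LHCII, was marked in air only. Its air peak was 743 bp broad, with 293 tags (260.4 to 328.5) and a summit at 332 bp. Its fold enrichment of 3.57 was the highest of the 46 genes, and 98.9% of all air peaks had a lower one. Among the 4142 genes marked in air only, 1 had a higher fold enrichment. The nearest ethylene peak lay 2146 bp away. The background at this summit was 79.8 tags in air, against 149.4 tags at PSAE2, where 248 summit tags gave a fold enrichment of 1.65.

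PSAO (AT1G08380) was counted as marked in ethylene only through a peak upstream of it. In air it had a peak of 711 bp with 285 tags inside the gene and a second of 527 bp with 301 tags at -436 bp. In ethylene a single peak of 372 bp with 304 tags lay at -457 bp, over the neighbouring gene AT1G08390. PSAO thus lacked a peak inside its body in ethylene. PSAG (AT1G55670) had an upstream air peak of 680 bp with 328 tags beside its own peak of 557 bp with 268 tags, and in ethylene the inner peak alone was called, with 267 tags. At PSAE1 and PSAG the main peak of both lists also covered an annotated coding gene on the other strand, AT4G28755 and AT1G55673, and in air that of PSAH1 covered part of ROPGEF13. The mark cannot be assigned to one of 2 such overlapping genes.

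The photosystem II genes were marked at 10 of 10 in both lists. With peaks of q at most 0.01, 7 of the 10 were marked in ethylene. PSBO1 and PSBO2, which encode the protein that stabilises the manganese cluster of water oxidation, had 298 and 286 tags in air and 299 and 290 in ethylene. PSBO2 (AT3G50820) had the broadest summed coverage of the group, 1639 bp in air and 1148 bp in ethylene, each from 2 peaks. The other extrinsic proteins of the oxygen-evolving complex, PSBP1, PSBQ1 and PSBQ2, had 226, 284 and 298 tags in air and 223, 266 and 279 in ethylene. PSBP1 (AT1G06680) was the lowest of the group in both lists, and its ethylene peak, 201 bp, was the narrowest among the 46 genes.

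The small membrane subunits PSBR, PSBW, PSBX and PSBY lay between 263 and 304 tags in air and between 269 and 306 in ethylene. PSBX (AT2G06520), the highest of the group, had 304 tags in air and 306 in ethylene, but its peaks also covered part of the adjoining gene RPA1A. PSBS (AT1G44575), which encodes the sensor protein of non-photochemical quenching, had 229 and 227 tags over 821 and 502 bp.

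RBCS1A (AT1G67090), RBCS2B (AT5G38420) and RBCS3B (AT5G38410) were marked in both lists and RBCS1B (AT5G38430) in neither. RBCS1A had 1 peak of 1124 bp with 254 tags in air, and 2 peaks in ethylene, of 437 bp with 257 tags and 334 bp with 235 tags. RBCS2B had 232 tags over 1251 bp in air and 204 tags over 604 bp in ethylene. RBCS3B had 221 tags over 524 bp and 224 tags over 401 bp. The nearest peak to RBCS1B lay 1175 bp away in air and 1184 bp in ethylene. RBCS1B, RBCS2B and RBCS3B lie in a row on chromosome 5, with 1095 bp between RBCS1B and RBCS2B and 2264 bp between RBCS2B and RBCS3B, and are 96.7% to 97.3% identical in coding sequence. With up to 2 mismatches, 73.0% of the reads of RBCS1B, 70.7% of those of RBCS2B and 77.1% of those of RBCS3B were unique, and 94.7% of those of RBCS1A, on chromosome 1.

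The bases around the air summit of RBCS2B are set against the unmarked RBCS1B to show how little separates them. Both are coding sequence of TAIR10.1, read 5′ to 3′ in the direction of the gene, and capitals mark bases that differ from RBCS2B.
RBCS2B, chr5:15381808-15381868, minus strand: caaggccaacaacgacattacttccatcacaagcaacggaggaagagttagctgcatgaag
RBCS1B, chr5:15384985-15385045, minus strand: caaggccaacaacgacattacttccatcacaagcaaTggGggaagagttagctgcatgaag
Of the 61 bases 2 differ, and 11 of 11 reads on this stretch are unique by exact match in both genes. RBCS3B differs from RBCS2B at 5 of these bases and RBCS1A at 4, also with 11 of 11 reads unique.

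Between the treatments, the called peaks differed in breadth more than in height. Of the 29 genes marked in both lists, 28 had a lower summed breadth in ethylene, and so did 96.7% of the other 12553 protein-coding genes with a peak in both. The exception among the 29 was LHCB1.3, with 207 bp called in air and 270 bp after ethylene. The median difference in summed breadth, ethylene minus air, was -301 bp for these genes and -259 bp for all. The differences were largest at PSAO, with 1238 and 372 bp, PSAG, with 1237 and 400 bp, and PSAH2, with 1129 and 331 bp, each of which had 2 peaks in air and 1 in ethylene.

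At the summits the lists held nearly equal tags. In 28 genes the main peaks of both lists overlapped, and the difference in tags, ethylene minus air, ran from -28 at RBCS2B to 16 at PSAH1, with a median of 1.5. Their summits lay a median of 19.5 bp apart, and at most 50 bp apart in 21 of the 28. Expressed as the share of all H3K9Ac tags, after correction for the ceiling of 400, the ratio of ethylene to air had a median of 1.06, against 1.04 over 12151 protein-coding genes. The lowest ratio was 0.860 (0.709 to 1.04) at RBCS2B and the highest 1.18 at LHCB4.3, with a lower limit of 0.991. The 95% intervals on ratios are approximate and cover counting error only. No gene of the 28 had an interval that left out 1, a share not counted for all genes. None of the 28 lay below 0.8 or above its inverse. Of the other 12123 such genes, 1.58% lay above the inverse of 0.8 and 0.503% below 0.8. By group the median ratio was 1.07 for LHCA, 1.11 for LHCB, 1.04 for photosystem I, 1.04 for photosystem II and 1.07 for RBCS.

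**Figure D5:**
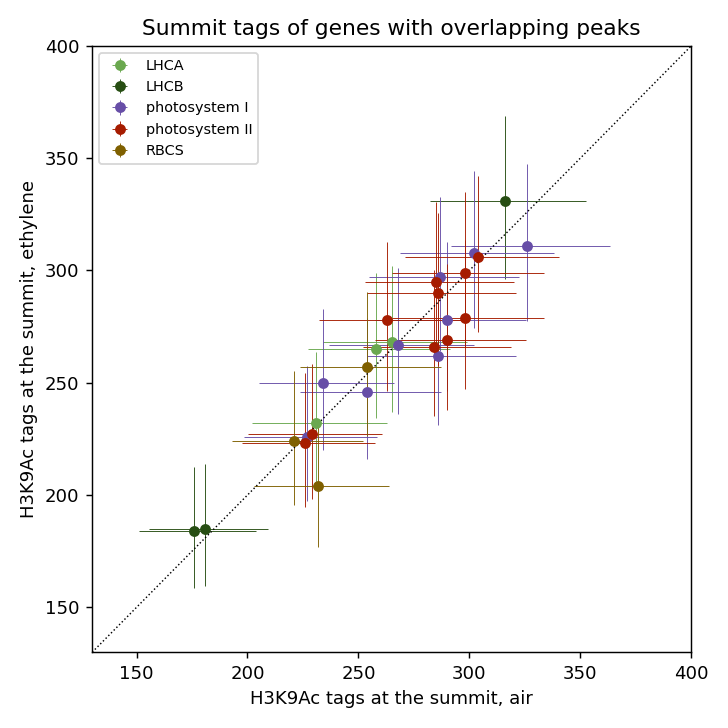
H3K9Ac tags at the main summit in ethylene against air for the 28 genes with overlapping main peaks, coloured by group, with exact Poisson 95% intervals (counting error only) and a dotted line of equality. The points run from 176 to 326 tags in air along the line, and the differences run from -28 tags at RBCS2B to 16 tags at PSAH1.

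Fold enrichment moved with the background as well as with the tags. Of the 28 genes, 21 had a lower fold enrichment in ethylene, against 68.7% of the other such genes. The background at the summit, in H3K9Ac tags, was higher in ethylene at 19 of the 28, with a median of 99.6 tags in air and 113.1 in ethylene. The share of all protein-coding genes with a higher background in ethylene was not counted. At PSAN (AT5G64040), a lumenal subunit of photosystem I, 287 tags in air stood over a background of 89.0 and 297 tags in ethylene over 170.1, and the fold enrichment was 3.14 in air and 1.70 in ethylene. PSAD1 (AT4G02770) had the opposite pattern, with 302 tags over 126.2 and 308 over 94.1, and fold enrichments of 2.36 and 3.06. Both the background and the calls come from 1 control library per treatment. The background values are control signal divided by the scale, 0.301 in air and 0.0999 in ethylene. A single control tag therefore weighs more in the ethylene background. No interval was computed for the background or the fold enrichment.

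The 7 genes marked in air only were LHCA3, LHCA4, LHCB4.1, LHCB4.2, LHCB6, PSAE2 and PSAL, of which 5 encode antenna proteins. Their air heights ran from 199 tags at LHCA3 to 362 at LHCB4.1. By air fold enrichment, PSAE2 was low for its list, with 5.72% of air peaks lower, whereas LHCA4, LHCB4.1 and PSAL exceeded 78.0%, 81.2% and 98.9% of air peaks. LHCA3, LHCB4.2 and LHCB6 were near the middle, above 57.3%, 46.3% and 46.6% of air peaks. The lists do not hold the signal in regions that were not called, so the tags of these genes in ethylene are not known.

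In air, 2 lists of other photosynthesis genes were marked at least as often as these 46. Of 23 genes of electron transport, ATP synthase and the Calvin cycle, 21 had an air peak and 14 an ethylene peak. TIM, RCA (RuBisCO activase) and FD2 (ferredoxin) had the largest summed breadths in air, at 1469 bp from 2 peaks, 1088 bp and 1023 bp. FNR2 and FBA1 had no peak. Of 18 genes of chlorophyll synthesis, 17 had an air peak and 15 an ethylene peak. The largest summed breadths in air were at PORB, 2072 bp, CHLI2, 1883 bp, and HEMC, 1191 bp, each from 2 peaks. No main air peak of this list was broader than 1040 bp. PORA, which encodes the protochlorophyllide reductase of etiolated seedlings, had no peak in either list. Median fold enrichment in air was 2.66 and 2.59 for these 2 lists, against 2.42 for the 46 genes.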

How the data were processed

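The authors mapped single-end 51-base reads to TAIR10 with Bowtie 1.1.2 and kept those with a unique position. Reads of both H3K9Ac libraries were joined by treatment, and MACS2 2.1.0.20150603 was run with the control as background, at a p of 0.01 and without a fragment model. SAMtools is also named in the submitters' processing notes. The deposited lists give each peak's position, the pileup (a signal scaled by the authors to the control, by 0.301 for air and 0.0999 for ethylene), the fold enrichment (a ratio) and the −log10 of p and q.

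Pileups were divided by the scale to recover tags. For ratios, tags t were corrected as −ln(1 − t/400) and divided by the H3K9Ac tags used. Peaks were joined to RefSeq TAIR10.1 genes. Shares of genes called were taken over protein-coding genes other than the 46, a change from the plan, which named all protein-coding genes. The shares over all of them differ in the last digit at most. With the coordinates as deposited, 63.9% of air peaks overlapped the 200 bp after a gene start, against 42.9% and 41.8% after a shift of 250 bp to either side. Uniqueness of 51-base reads was counted by exact match and, with up to 2 mismatches, with bwa 0.7.19. Python 3.11.15, pandas 2.3.3, scipy 1.17.1 and biopython 1.88 were used. The overlap and ratio steps were tested on simulated data. The exact-match uniqueness of the 46 genes was compared with that from bwa on the same reads.

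The genes and lists were chosen with earlier results of these data known. Named were all 46 genes, up to 3 genes of each other list plus those without a peak, and genes that a named gene's peak also covers. No significance test was made, since each list pools its libraries. Alternatives to the window, assignment, thresholds and scaling were tried.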

Additional observations from a re-analysis of the deposited data

How the results depend on the processing

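Over 14 alternatives, 188 values were compared, of which 176 stayed and 12 moved. A count stayed if it was within 1.5 times the main count. A median stayed if it was within an interval of the main median across genes. That interval reflects the spread between genes and not the counting error on tags. Between 31 and 37 genes were marked in air, and between 15 and 32 after ethylene. With peaks of q at most 0.01, 15 of the 46 genes were marked in ethylene, against 31.6% of the other protein-coding genes. The 15 were 1 LHCA, 1 LHCB, 5 photosystem I, 7 photosystem II and 1 RBCS gene. All 15 were narrower in ethylene, and no air call was lost. At a fold enrichment of at least 2, photosystem I had 5 and photosystem II 8 in ethylene, and 17 genes were narrower. With 1000 bp upstream, LHCB had 5 in ethylene through LHCB4.1 and LHCB6, and LHCA1 was marked in both lists. Assigning each peak to its nearest gene took LHCB6, PSAE1 and PSAG from the air list. Without the 12 genes under 90% unique reads, an alternative chosen after seeing the data, RBCS had 1 in air and 1 in ethylene, of 1 left. LHCB then had 5 in air and 2 in ethylene, with LHCB2.3, LHCB3 and the LHCB4 to LHCB6 genes left. The rule for counts does not allow for the fewer genes left. Without division by library size the median tag ratio was 1.011. No gene was under 50% unique by exact match, so that alternative changed nothing. Taking the breadth of the main peak alone and the tallest overlapping peak were also added after seeing the data.

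No paired analysis was possible because the lists pool the libraries of a treatment, and for the same reason leaving out a replicate was not run. The air control had 13726993 tags and the ethylene control 4354374. The part of this difference in the calls was not tested. An uncalled gene had no listed peak, and the lists hold no signal for uncalled regions. No main peak of a protein-coding gene was narrower than 200 bp in either list. Whether uncalled genes held narrower regions past the caller's p of 0.01 was not tested.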
